A study of Mus musculus with 12 samples.

Results

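The genes described here are 10 genes of stratified epithelium, the layered tissue of skin and oral lining: the keratin genes Krt1, Krt5, Krt6a, Krt6b, Krt13, Krt14, Krt16 and Krt17, the transcription factor gene Trp63 and Sfn. They were taken by symbol from a table of read counts for 24207 mouse genes, and all 10 were found once each. The counts came from 12 RNA libraries of mouse embryonic fibroblasts (C57BL/6), connective tissue cells, collected after 7 days. All cells carried FUW-OSKM and FUW-M2rtTA, constructs that express Oct4, Sox2, Klf4 and Myc (together OSKM) when doxycycline is given, and all grew in embryonic stem cell medium on irradiated feeder fibroblasts. The 4 groups of 3 libraries were uninduced cells without doxycycline and with a scrambled hairpin RNA, induced cells with doxycycline and the scrambled hairpin (the induced controls), induced cells with a hairpin against Trim28, and induced cells with hairpins against both Trim28 and Setdb1. Setdb1 is a histone methyltransferase, and it is brought to silenced DNA by the corepressor Trim28. Nothing in the labels says that replicates came from different cultures or embryos, and p-values therefore reflect only how these libraries varied, which may be technical. Neither do the labels say whether the feeder fibroblasts were removed, and reads of feeder and reprogrammed cells are counted together.

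Keratins build the intermediate filaments of epithelial cells, and each filament needs a type I and a type II chain. Basal cells of stratified epithelium pair the type I chain Krt14 with the type II chain Krt5. Cells that leave the basal layer of skin switch on Krt1. Krt13 is a keratin of oral and oesophageal lining, and Krt6a, Krt6b, Krt16 and Krt17 are the keratins of wounded, hair-forming or fast-dividing epithelium. Trp63 encodes p63, a relative of p53 that maintains the basal state, and Sfn encodes 14-3-3 sigma, an adaptor protein abundant in keratinocytes and a known target of p53. OSKM expression is known to turn fibroblasts epithelial before they become pluripotent.

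The libraries held 11906701 to 19191649 counted reads, and levels are given as CPM (reads per 1000000, scaled by the library factors used in the tests). A floor of 3 reads in a library lay between 0.150 and 0.243 CPM. Mitochondrial transcripts took 1.78% to 2.37% of reads. Trim28 was at 58.4 ± 5.95 CPM (SD, n = 3) with its hairpin, 103 ± 6.40 with both hairpins and 328 ± 38.3 in the induced controls. Setdb1 was at 60.7 CPM in uninduced cells, 81.2 in the induced controls, 122 with the Trim28 hairpin and 63.1 with both. Both target transcripts thus differed between the single and the double knockdown. The summed level of 11 fibroblast markers was 45000 to 51760 CPM in uninduced libraries, 25760 to 34280 in induced controls, 25710 to 27810 with the Trim28 hairpin and 32260 to 35640 with both hairpins, and none of the 11 was at 0 reads. Fibroblast transcripts were thus present in each group, and how much of them came from feeder cells cannot be told. In bulk RNA, fewer cells of a type and less RNA per cell cannot be told apart.

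Induction brought 9 of the 10 genes up, where 32.7% of the 14520 genes tested rose, and left Trp63 without a change that passed. The 9 differ from one another by orders of magnitude in how much transcript they reached. The test itself favours a rise for 6 of them (Krt1, Krt5, Krt6a, Krt6b, Krt13 and Krt17): none of their uninduced libraries reached the expression minimum of 0.600 CPM, so they entered the test through induced libraries. Krt14, Krt16, Trp63 and Sfn reached it in all 3 uninduced libraries. In the Trim28 knockdown 6 of the 10 fell, 2 rose and 2 did not pass (median log2 change -0.33, against -0.0016 over all genes tested). Of all genes tested, 11.8% fell, 13.1% rose and 24.9% did either, and 38.9% had 3 and 3 libraries without overlap. With both hairpins 8 fell and 2 did not pass (median -1.29, against 0.00094), where 18.5% of all genes fell, 36.7% moved either way and 45.1% did not overlap. Between the single and the double knockdown 8 fell and 2 did not pass, where 11.7% of all genes fell, 21.7% moved either way and 46.9% did not overlap. In each comparison the genes of the set that passed had groups without overlap and those that did not pass had groups that overlapped. The same induced controls serve in the comparison with uninduced cells and in both knockdown comparisons, so these are not independent.

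**Figure D1:**
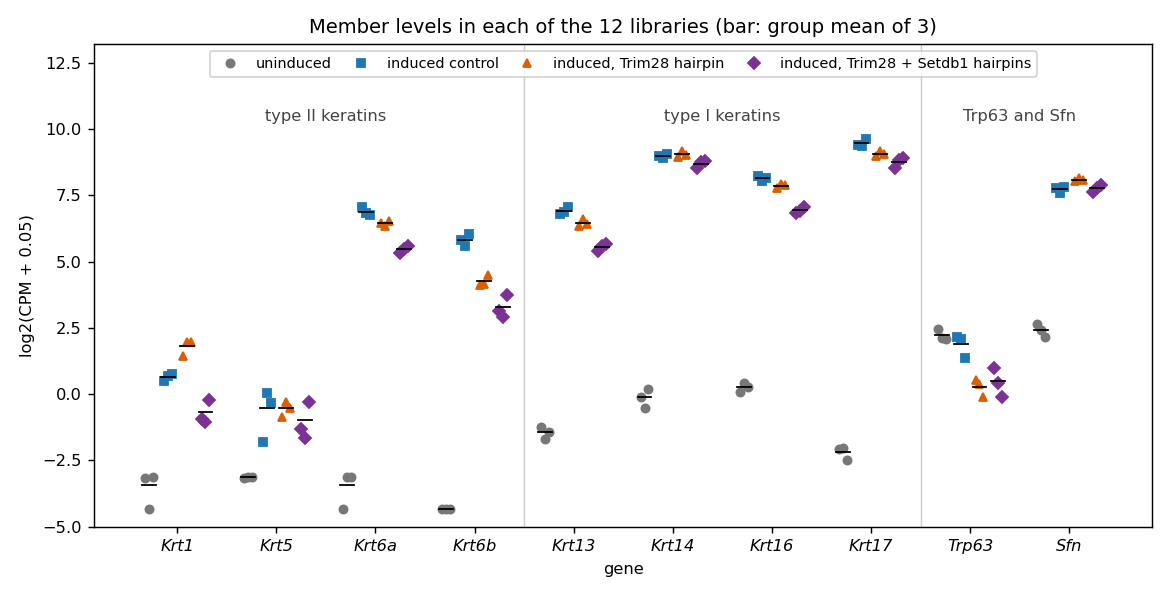
Levels of the 10 genes in each library on a log2 scale (log2 of CPM plus 0.05), with group means as bars and 3 libraries per group. Uninduced libraries lie below the induced ones for every keratin and Sfn, for Krt5 on few reads (1 in each uninduced library, 4 to 15 in each induced one). Trp63 lies at 4.14 to 5.49 CPM in uninduced cells and at 0.875 to 1.40 CPM with the Trim28 hairpin.

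Trp63 (ENSMUSG00000022510, chromosome 16, 25683763 to 25892102) was the one gene of the set that did not rise with induction and fell with either hairpin set. Uninduced libraries had 88, 67 and 64 reads of it, or 5.49, 4.30 and 4.14 CPM. The induced controls had 76, 51 and 50 reads, or 4.44, 4.13 and 2.50 CPM. These groups overlapped, and the log2 change of -0.36 ± 0.24 (SE, n = 3 per group) did not pass (edgeR adjusted p = 0.198). The Trim28 hairpin left 22, 21 and 15 reads, or 1.40, 1.24 and 0.875 CPM. All 3 of these libraries lay below all induced controls, a log2 change of -1.63 ± 0.31 (edgeR adjusted p = 0.000604). With both hairpins the libraries had 33, 24 and 15 reads, or 1.94, 1.30 and 0.876 CPM, again without overlap with the induced controls, and the log2 change was -1.40 ± 0.29 (edgeR adjusted p = 0.00104). Between single and double knockdown Trp63 did not pass, with a log2 difference of 0.23 ± 0.34 (edgeR adjusted p = 0.678). Gene counts do not separate the p63 isoforms. The other p53 family gene with enough reads, Trp53, was at 123 CPM in induced controls, 126 with the Trim28 hairpin and 138 with both, and passed in none of the 4 comparisons, while Trp73 had too few reads to test.

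The basal pair was unequal. Krt14 (ENSMUSG00000045545, chromosome 11, 100203162 to 100207548) had 14, 10 and 17 reads in uninduced libraries and 8514, 5920 and 10738 in the induced controls, which is 498, 479 and 537 CPM. Krt5 (ENSMUSG00000061527, chromosome 15, 101707070 to 101712891), its usual partner, had 1 read in each uninduced library and 4, 12 and 15 reads in the induced controls. Krt5 was 9.83-fold higher after induction on 3 uninduced reads (95% counting interval 3.07 to 50.2, which covers counting error only) and passed the test (edgeR adjusted p = 0.00111). This count is uncertain, since 8.52% of the 50-base windows of Krt5 also occur in transcripts of other genes, most of them in Krt6a (6.98%), which had 5797 reads in the induced controls. For Krt14 the share was 13.9%, most of it with Krt16 (11%). On the scale of CPM per kilobase of exon, Krt14 stood at 287 ± 16.8 and Krt5 at 0.297 ± 0.172 in the induced controls. In single libraries the ratio of Krt14 to Krt5 on that scale ran from 617 to 2660 in the induced controls. The type I chain of the basal pair thus had far more transcript than its type II partner in every induced control.

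Neither hairpin set moved Krt5 past the threshold. It had 8, 13 and 11 reads with the Trim28 hairpin and 6, 5 and 13 with both, and the log2 changes against induced controls were 0.03 ± 0.44 and -0.46 ± 0.47 (edgeR adjusted p = 0.973 and 0.466). These standard errors were the widest of the 10 genes in both comparisons. With the Trim28 hairpin Krt14 was at 497, 580 and 520 CPM, overlapping the controls, with a log2 change of 0.08 ± 0.084 (edgeR adjusted p = 0.557). With both hairpins Krt14 was at 365, 426 and 446 CPM, all below the induced controls, and fell by 0.29 ± 0.084 on the log2 scale (edgeR adjusted p = 0.0126). Leaving out control replicate 3 (adjusted p = 0.0526) or double-knockdown replicate 1 (0.0811) ended this call, over a range of 0.000647 to 0.0811. Against the Trim28 knockdown the fall of Krt14 was 0.37 ± 0.084 (edgeR adjusted p = 0.00526).

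Krt1 (ENSMUSG00000046834, chromosome 15, 101845428 to 101850786), the keratin of cells above the basal layer, went in opposite directions in the single and the double knockdown. It had 1, 0 and 1 reads in uninduced libraries and 23, 19 and 33 in the induced controls, a ratio of 35.7 (95% counting interval 9.54 to 300.0). The Trim28 hairpin libraries held 42, 65 and 66 reads, or 2.66, 3.84 and 3.85 CPM against 1.34, 1.54 and 1.65 in the controls. That rise was 1.19 ± 0.24 on the log2 scale (edgeR adjusted p = 0.00117). With both hairpins Krt1 had 8, 8 and 14 reads, or 0.470, 0.433 and 0.818 CPM, below every induced control. The log2 change was -1.40 ± 0.33 against the induced controls (edgeR adjusted p = 0.00239) and -2.59 ± 0.30 against the Trim28 knockdown (edgeR adjusted p = 1.04e-05). No other gene of the set passed in both directions against the induced controls.

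Krt6a (ENSMUSG00000058354, chromosome 15, 101689932 to 101694307) and Krt6b (ENSMUSG00000023041, chromosome 15, 101676034 to 101680289) are neighbouring, near-identical copies, and their counts are uncertain for that reason. Their coding sequences were identical at 1625 of 1662 aligned bases (97.8%), with an identical run of 280 bases. Of all 50-base windows in annotated transcripts, 40.2% of those of Krt6a also occur in Krt6b and 44.5% of those of Krt6b in Krt6a. The stretch of 60 coding bases where they differ most (bases 817 to 876 of both coding sequences, GENCODE M21 transcripts) is shown because only reads over such places tell the copies apart. Capitals mark the 10 bases that differ.
Krt6a: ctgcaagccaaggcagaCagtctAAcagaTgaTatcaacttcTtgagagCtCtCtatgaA
Krt6b: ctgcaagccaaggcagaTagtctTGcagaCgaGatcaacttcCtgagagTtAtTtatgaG
The sources used here do not say how reads that match both copies were counted.

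Krt6a had 0, 1 and 1 reads in uninduced libraries and 131, 113 and 108 CPM in the induced controls, a ratio of 2760 (95% counting interval 763 to 22800). Krt6b had no read in the 3 uninduced libraries and 56.4, 48.5 and 65.1 CPM in the induced controls, so it was at least 909-fold higher against a floor of 3 reads over the group. The Trim28 hairpin took Krt6b to 17.5, 17.7 and 22.3 CPM, a log2 change of -1.57 ± 0.17 (edgeR adjusted p = 9.84e-06), and Krt6a to 87.9, 81.5 and 93.1 CPM, a log2 change of -0.42 ± 0.088 (edgeR adjusted p = 0.00207). Both copies lay below every induced control. Of all 8 keratins, Krt6b was the one with the largest fall in this comparison. With both hairpins Krt6b was at 8.64, 7.37 and 13.3 CPM (log2 change -2.54 ± 0.18, edgeR adjusted p = 1.18e-07) and Krt6a at 40.3, 43.8 and 47.8 CPM (-1.42 ± 0.090, edgeR adjusted p = 1.2e-08). From the single to the double knockdown Krt6b fell by 0.98 ± 0.19 and Krt6a by 0.99 ± 0.091.

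The ratio of Krt6b to Krt6a, chosen after its values were seen and given without a test, was 0.464 to 0.654 in the induced controls per kilobase of exon. It was 0.215 to 0.260 with the Trim28 hairpin and 0.182 to 0.301 with both. The ranges of the hairpin groups overlap each other and lie below those of the controls. Whether the ratio differs between the hairpin groups was not tested.

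Krt16 (ENSMUSG00000053797, chromosome 11, 100246091 to 100248902) and Krt17 (ENSMUSG00000035557, chromosome 11, 100256217 to 100261029), the type I keratins that accompany Krt6 in activated epithelium, fell by unequal amounts. Krt16 was at 299, 264 and 282 CPM in the induced controls, 220, 241 and 238 with the Trim28 hairpin and 113, 120 and 133 with both. The 3 groups did not overlap, and the log2 changes against the controls were -0.28 ± 0.072 with the Trim28 hairpin and -1.21 ± 0.073 with both (edgeR adjusted p = 0.00957 and 6.69e-09). Krt17 was at 673, 648 and 783 CPM in the induced controls, 498, 580 and 530 with the Trim28 hairpin and 369, 458 and 478 with both. Its changes against the controls were -0.39 ± 0.094 and -0.69 ± 0.094 (edgeR adjusted p = 0.00612 and 3.49e-05). The further fall of Krt17 from the single to the double knockdown, 0.30 ± 0.094 (edgeR adjusted p = 0.0307), was lost in 3 of 14 alternatives: without replicate 2 or 3 of the Trim28 knockdown (adjusted p = 0.153 and 0.075) and without replicate 1 of the double knockdown (0.174), over a range of 0.000676 to 0.174. That of Krt16, -0.93 ± 0.073 (edgeR adjusted p = 6.54e-07), was kept in all 14. In uninduced cells Krt16 had 16, 20 and 18 reads and Krt17 had 3, 3 and 2. Counts of Krt16 are uncertain too, since 37.6% of its 50-base windows also occur in transcripts of other genes, most of them in the pseudogene Gm11597 (25.2%) that lies outside the counted table used here.

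Krt13 (ENSMUSG00000044041, chromosome 11, 100117327 to 100121566), the keratin of oral lining, shared none of its 50-base windows with annotated transcripts of another gene. Inexact matches and copies outside the annotation were not searched. It had 6, 4 and 5 reads in uninduced libraries. It reached 110, 116 and 133 CPM in the induced controls, a log2 change of 8.52 ± 0.36 (edgeR adjusted p = 8.5e-16). The Trim28 hairpin libraries were at 80.8, 96.2 and 85.2 CPM and those with both hairpins at 41.9, 47.6 and 49.9. All 3 induced groups were apart from one another. The log2 changes were -0.45 ± 0.087 for the Trim28 hairpin and -1.37 ± 0.089 for both (edgeR adjusted p = 0.00104 and 1.45e-08), and -0.91 ± 0.089 between them (edgeR adjusted p = 5.43e-06).

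Sfn (ENSMUSG00000047281, chromosome 4, 133600556 to 133602168) was, with Krt1, one of the 2 genes of the set that rose with the Trim28 hairpin. It was at 6.18, 5.27 and 4.40 CPM in uninduced cells and 221, 194 and 226 in the induced controls, a log2 change of 5.33 ± 0.12 (edgeR adjusted p = 1.68e-15). With the Trim28 hairpin it was at 262, 282 and 270 CPM, above all controls, a rise of 0.35 ± 0.085 (edgeR adjusted p = 0.00658). With both hairpins it was at 195, 219 and 236 CPM, which overlaps the controls, and the log2 change of 0.02 ± 0.085 did not pass (edgeR adjusted p = 0.872). The fall of Sfn from single to double knockdown, 0.33 ± 0.085 (edgeR adjusted p = 0.0117), was lost in 2 of 14 alternatives, without replicate 2 of the Trim28 knockdown (0.061) and without replicate 1 of the double knockdown (0.0788), over a range of 0.000418 to 0.0788. Of the 7 genes of the 14-3-3 family, Sfn and Ywhah rose with the Trim28 hairpin and 5 did not pass. Ywhah rose with both hairpins as well, by 0.51 ± 0.062. Other annotated transcripts hold 15% of the 50-base windows of Sfn, most of them in the pseudogene Gm7850 (11.8%).

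**Figure D2:**
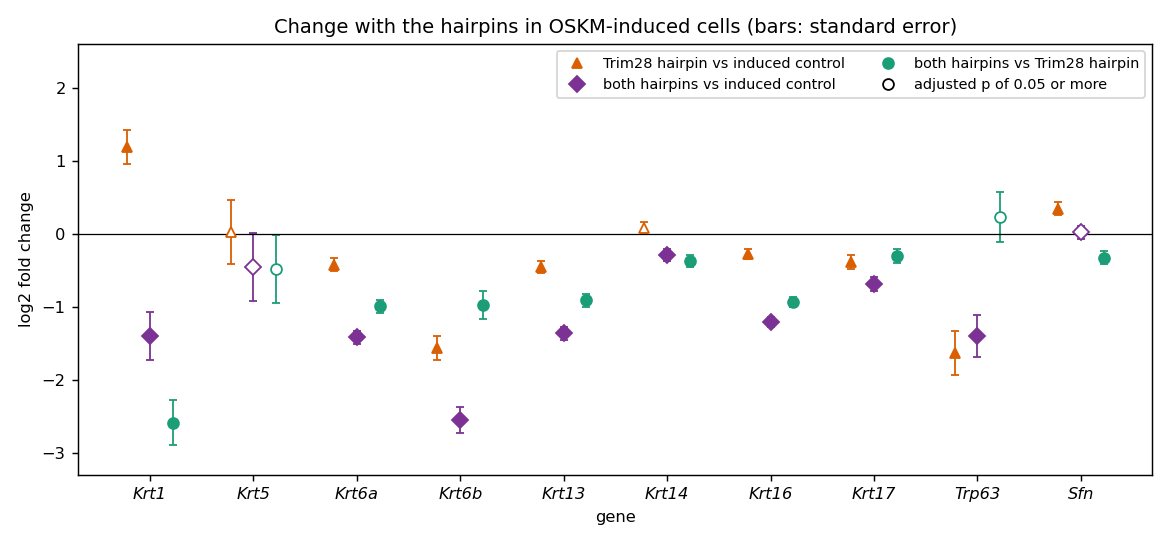
Log2 fold changes of the 10 genes in the 3 comparisons among induced cells, with standard errors as bars and open symbols where the edgeR adjusted p was 0.05 or more. Krt1 is at 1.19 with the Trim28 hairpin and at -1.40 with both, and Trp63 at -1.63 and -1.40.

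Promoter sequences were looked up for the 10 genes in RefSeq on GRCm38.p6 and 4 matched, Sfn, Krt13, Krt14 and Krt5. Each window is 300 bases long and spans a start site. The windows of Krt13 and Sfn, which reached over 100 CPM, and of Krt5, which stayed under 1 CPM, are shown to set abundant genes of the set beside one that stayed nearly unread. That of Krt14 belongs to an internal start and is left out, as is the second start of Krt13. Capitals mark matches on either strand to CACCC (the box bound by Klf factors), TGANTCA (an AP-1 site), CACCTG (an E-box bound by Snail and Zeb repressors) and TATAAA (the TATA box), and no matches overlap. The windows, on the minus strand, are chr11:100121517-100121816 for Krt13, chr4:133602119-133602418 for Sfn and chr15:101712856-101713155 for Krt5.
Krt13: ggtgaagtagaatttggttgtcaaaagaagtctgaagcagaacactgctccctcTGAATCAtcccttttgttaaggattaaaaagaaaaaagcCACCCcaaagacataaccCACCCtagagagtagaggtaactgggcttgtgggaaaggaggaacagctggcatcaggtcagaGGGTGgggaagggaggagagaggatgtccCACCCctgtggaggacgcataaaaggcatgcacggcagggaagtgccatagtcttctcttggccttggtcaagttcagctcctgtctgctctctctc
Sfn: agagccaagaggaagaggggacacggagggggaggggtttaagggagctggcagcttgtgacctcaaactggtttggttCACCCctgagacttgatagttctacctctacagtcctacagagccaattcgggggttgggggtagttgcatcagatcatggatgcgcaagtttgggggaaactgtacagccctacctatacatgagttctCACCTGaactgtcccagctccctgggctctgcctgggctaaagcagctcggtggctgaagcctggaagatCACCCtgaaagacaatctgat
Krt5: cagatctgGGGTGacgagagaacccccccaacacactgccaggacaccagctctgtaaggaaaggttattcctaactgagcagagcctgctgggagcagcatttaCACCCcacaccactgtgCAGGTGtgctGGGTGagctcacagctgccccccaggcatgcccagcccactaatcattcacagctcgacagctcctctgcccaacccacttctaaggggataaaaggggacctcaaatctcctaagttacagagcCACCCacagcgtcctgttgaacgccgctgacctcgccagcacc
Krt13 held 4 matches to CACCC and 1 to TGANTCA, Sfn 2 to CACCC and 1 to CACCTG, and Krt5 4 to CACCC and 1 to CACCTG. None of the 3 held the exact letters TATAAA, and near variants of the TATA box were not searched. Of 32851 mouse promoter windows of 300 bases, 57.5% hold CACCC, 7.81% TGANTCA, 20.2% CACCTG and 13.6% TATAAA. In the windows shown, Krt5 and Krt13 hold the same number of CACCC boxes, at 0.652 and 120 CPM in the induced controls. Of the windows left out, that of the second Krt13 start holds 1 CACCC and 2 TGANTCA, and that of Krt14 holds 1 CACCC. Whether these matches bear on transcript levels was not tested. Matches describe letters in these windows, not binding.

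Levels of different genes were set side by side as CPM per kilobase of merged annotated exons, a scale on which genes with many annotated transcripts, such as Trp63 and Krt1, come out low. In the induced controls the order was Krt17 (452 ± 46.2), Krt14 (287 ± 16.8), Krt16 (180 ± 11.3), Sfn (132 ± 10.5), Krt13 (65.7 ± 6.50), Krt6a (48.5 ± 5.13) and Krt6b (25.4 ± 3.72). Each of these 7 lay apart from its neighbours in all 3 libraries. Trp63, Krt1 and Krt5 followed at 0.440 ± 0.124, 0.342 ± 0.0351 and 0.297 ± 0.172, and overlapped one another. With the Trim28 hairpin the ranges of Krt17 (346 ± 26.8) and Krt14 (303 ± 24.3) overlapped across libraries. Within each library Krt17 was the higher, with a ratio of Krt14 to Krt17 of 0.865 to 0.881. Sfn (168 ± 6.28) stood above Krt16 (149 ± 7.26) without overlap. With both hairpins the ranges of Krt17 (281 ± 37.5) and Krt14 (235 ± 24.0) overlapped again, and Krt17 was again higher within each library (ratio 0.821 to 0.873). Sfn (134 ± 12.6) stood far above Krt16 (78.0 ± 6.52). In uninduced cells Sfn led at 3.28 ± 0.552, followed by Krt16 (0.734 ± 0.0919), Trp63 (0.554 ± 0.0879) and Krt14 (0.496 ± 0.130), and the last 3 overlapped in part.

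Over 43 keratin genes with an exon length, total keratin transcript per kilobase was 13.96 to 15.82 in uninduced libraries, 1720 to 1997 in induced controls, 1458 to 1681 with the Trim28 hairpin and 935.8 to 1166 with both. The 8 stratified keratins made up 9.53% to 12.2% of it before induction and 57.0% to 60.7% in the induced controls. Their share was 56.7% to 57.2% with the Trim28 hairpin and 59.4% to 60.1% with both. The stratified share thus lay between 56.7% and 60.7% in all induced libraries, while the total was lower in every double-knockdown library than in any other induced one. Inside it the makeup shifted, with Krt14 at 15.3% to 16.4%, 18.9% to 19.6% and 21.7% to 22.2% of all keratin transcript in the induced controls, the single and the double knockdown. Krt13 went the other way, at 3.5% to 3.7%, 3.0% to 3.14% and 2.35% to 2.46%. The main simple-epithelium keratin, Krt8, held 27.8% to 31.0%, 32.8% to 33.4% and 30.5% to 31.0%.

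**Figure D3:**
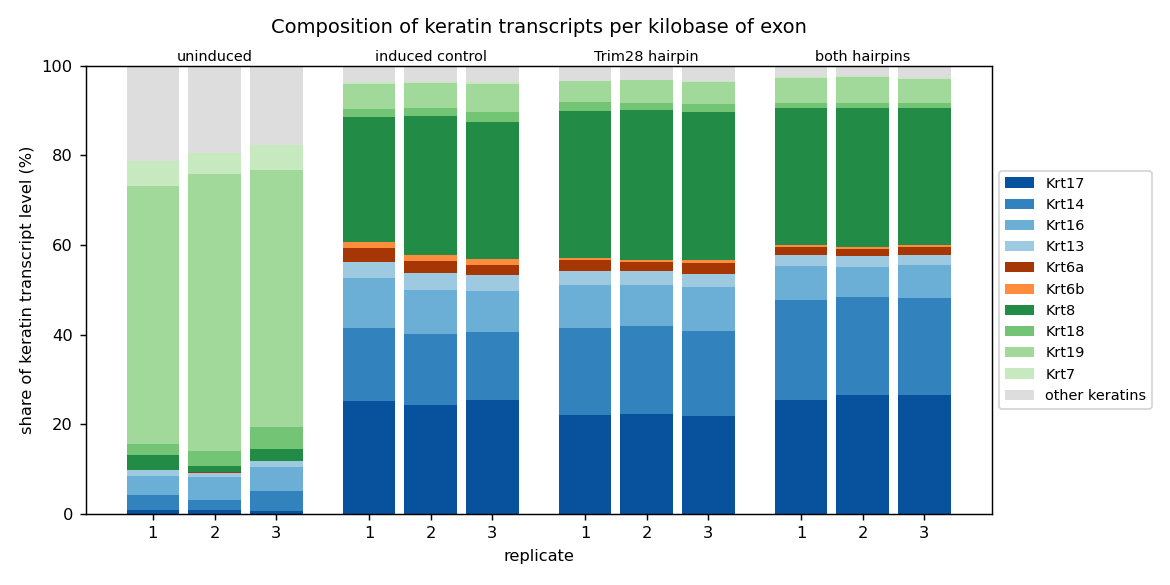
Share of each keratin in the summed keratin level (CPM per kilobase of exon, in percent) for each of the 12 libraries, replicates 1 to 3 in each group. Krt19 fills most of the small uninduced total, and Krt17, Krt14, Krt16 and Krt8 fill most of the induced ones.

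Type I chains outweighed type II chains among the members. The summed type I members (Krt13, Krt14, Krt16 and Krt17) exceeded the type II members (Krt1, Krt5, Krt6a and Krt6b) by 12.1 to 14.3 times in the induced controls, 16.8 to 21.3 times with the Trim28 hairpin and 25.7 to 29.6 times with both hairpins. Over all keratins, in which the type II chain Krt8 is included, the ratio was 1.58 to 1.75, 1.53 to 1.56 and 1.83 to 1.84 in these groups. Counting the simple keratins thus brought the chains much nearer to balance in these libraries. The ratio of Krt13 to Krt14 was 0.214 to 0.239, 0.157 to 0.160 and 0.108 to 0.111, and did not overlap between any 2 induced groups. These ratios are given as a description, with no test.

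**Figure D4:**
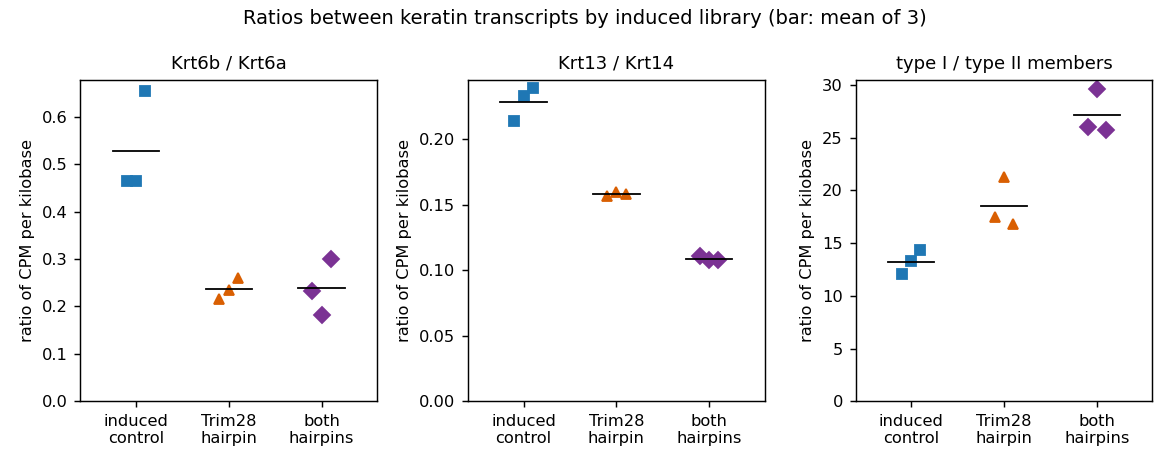
Ratios of CPM per kilobase in each induced library, with means of 3 as bars: Krt6b to Krt6a (left), Krt13 to Krt14 (middle) and summed type I to type II members (right). The first drops with the Trim28 hairpin and overlaps between the hairpin groups, and the other 2 differ between all 3 groups.

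The remaining keratins gave the setting of these changes. The table held 20 keratin genes on chromosome 11 and 23 on chromosome 15, of which 8 and 10 had enough reads to test. Krt2, Krt4, Krt15 and Krt75 to Krt79, further keratins of layered epithelium, were not among them: Krt2 had 57 reads and Krt15 had 76 over all 12 libraries. Krt80, a broadly expressed keratin, rose with induction (3.82 to 110 CPM on average) and fell with both hairpins by 0.89 ± 0.12. Krt10, the usual partner of Krt1, was at 1.94 CPM in uninduced cells and 1.62 in the induced controls and passed in none of the 4 comparisons. Of 5 simple-epithelium keratins tested, 3 fell and 2 did not pass with the Trim28 hairpin, where 11.8% of all genes fell. With both hairpins 4 fell and 1 did not pass, where 18.5% of all genes fell. Krt7 moved most of the 5, from 56.6 to 12.7 CPM with the Trim28 hairpin (log2 change -2.16 ± 0.17). Krt84, annotated as a hair keratin, went from 0.0632 to 115 CPM with induction and fell in both knockdowns, with log2 changes of -0.36 ± 0.12 and -1.64 ± 0.12.

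Genes that work with these keratins moved in different directions under the Trim28 hairpin. Desmosomes anchor keratin filaments between cells: 12 of 12 tested genes rose with induction, of which 6 reached the expression minimum in no uninduced library and 6 in all 3, where 32.7% of all genes rose. With the Trim28 hairpin 9 fell and 3 did not pass (median log2 change -0.93, against -0.0016 over all genes tested), where 11.8% of all genes fell. Dsg2 and Dsc2, desmosomal cadherins, and Pkp1, a plaque protein, fell by 1.49 ± 0.15, 1.48 ± 0.15 and 1.08 ± 0.12. Hemidesmosomes anchor the same filaments to the basement membrane, and 11 genes of either structure were tested as 1 list. With the Trim28 hairpin 7 rose, 4 did not pass and none fell (median 0.43), where 13.1% of all genes rose. Lamb3, a laminin chain, Col7a1, an anchoring collagen, and Itgb4, the hemidesmosomal integrin chain, rose by 1.39 ± 0.078, 0.86 ± 0.089 and 0.59 ± 0.082. With both hairpins the desmosome list had 11 that fell and 1 that did not pass (median -1.52). The hemidesmosome and basement membrane list had 4 that rose, 2 that fell and 5 that did not pass (median -0.062). Of all genes, 18.1% rose and 18.5% fell there. Between single and double knockdown 7 of these 11 genes fell and 4 did not pass, where 11.7% of all genes fell. Itgb4 was at -0.69 ± 0.082 and Col17a1, a hemidesmosomal collagen, at -1.36 ± 0.17.

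The cornified envelope is the protein shell of the outermost skin cells. Of 15 such genes tested, 14 rose and 1 fell with induction, where 32.7% of all genes rose. For 9 of the 15 no uninduced library reached the expression minimum, so a rise was favoured for them, and of the 4 that reached it in all 3 uninduced libraries 3 rose and 1 fell. Cst6, a protease inhibitor, was the one that fell, by 0.95 ± 0.21. With the Trim28 hairpin 5 rose, 3 fell and 7 did not pass (median -0.22), where 13.1% of all genes rose and 11.8% fell. Cnfn, which encodes cornifelin, went from 13.1 to 102.5 CPM (log2 change 2.95 ± 0.12), and Tgm3, an enzyme that cross-links the shell, from 45.6 to 140 CPM (1.62 ± 0.095). With both hairpins 2 rose, 10 fell and 3 did not pass (median -0.93), where 18.1% of all genes rose and 18.5% fell. Cnfn stayed high at 111 CPM while Tgm3 stood at 35.0 CPM, a fall of 1.99 ± 0.096 from the Trim28 knockdown. Like Krt1, Tgm3 thus rose with the Trim28 hairpin and fell below the induced controls with both (-0.38 ± 0.099).

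Of 18 transcription factors with roles in epidermis, 14 rose, 2 fell and 2 did not pass with induction, where 32.7% of all genes rose. The minimum was reached in no uninduced library by 7 of the 18, and of the 8 that reached it in all 3, 4 rose and 2 fell. Ovol1 went from 0.0208 to 22 CPM, Ehf rose by 7.69 ± 0.38, and Msx2 fell by 1.52 ± 0.18. In the Trim28 knockdown 5 fell, 2 rose and 11 did not pass (median -0.21), where 11.8% of all genes fell and 13.1% rose. Tfap2c was at -1.60 ± 0.23 and Hes1, a Notch target, at 0.48 ± 0.083. With both hairpins 13 fell, 1 rose and 4 did not pass (median -0.99), where 18.5% of all genes fell and 18.1% rose. Grhl2, an activator of epithelial junction genes, was at -1.36 ± 0.14 and Ehf at -1.23 ± 0.13.

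**Figure D5:**
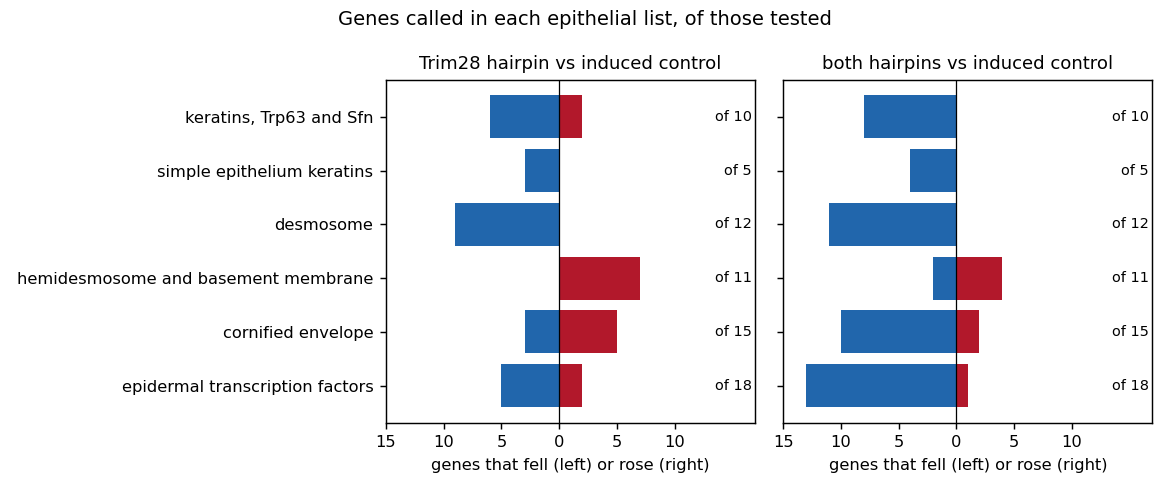
Number of genes that fell (blue, left) or rose (red, right) at an edgeR adjusted p under 0.05 in each epithelial list, with the number tested at the right edge, for the Trim28 hairpin (left panel) and both hairpins (right panel) against the induced controls. The hemidesmosome and basement membrane list has 7 rises and no fall with the Trim28 hairpin, where the desmosome list has 9 falls and no rise.

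Other transcripts moved beside the falls in the double knockdown. Of all genes tested, 18.1% rose and 18.5% fell in that group against the induced controls. The summed level of 10 simple-epithelium markers was 1836 to 2328 CPM in induced controls, 1801 to 2048 with the Trim28 hairpin and 1030 to 1282 with both. All 10 fell in the last group against the controls. Of the fibroblast markers 5 rose, 2 fell and 4 did not pass there, with Vim at 0.72 ± 0.075 and the collagen gene Col3a1 at -1.04 ± 0.13. The 4 factors themselves, whose gene counts may join construct and genomic transcripts, fell with both hairpins, Pou5f1, Sox2, Klf4 and Myc by 0.41 ± 0.11, 0.54 ± 0.17, 0.54 ± 0.096 and 0.42 ± 0.11. With the Trim28 hairpin alone they did not fall: their means were 577, 191, 488 and 549 CPM. In the induced controls these means were 487, 161, 461 and 506 CPM, and the ranges of the 3 libraries overlapped for each factor. The part of these shifts in the fall of the keratins was not tested. Of 12 markers of muscle, blood, endothelium and neurons, the summed level was 227.3 to 262.7 CPM in the induced controls and 266.6 to 302.8 with both hairpins, with none at 0 reads in either group. Of the 7 with enough reads to test, 3 rose, 3 fell and 1 did not pass with both hairpins, among them Acta1, a muscle actin, at 1.92 ± 0.15 and Map2, a neuronal microtubule protein, at -1.31 ± 0.10.

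The genes whose pattern lay nearest to 3 of the members were found by the root mean square difference of the log2 changes in the first 3 comparisons, over 4 groups and among 12720 protein-coding genes (predicted genes left out) that reached a mean of 1 CPM in some group. Nearest to Trp63 were Itih5 (0.178), which encodes a hyaluronan-associated protein, Kcnma1 (0.184), a potassium channel, and Tmem26 (0.194). Nearest to Krt14 were Misp (0.123), Dkkl1 (0.126) and Ahsg (0.162). Nearest to Krt6a were Tnk1 (0.133), a kinase gene, Alox12b (0.287), a lipoxygenase of the skin barrier, and Abcc8 (0.338). These rankings are loose. The distances for Trp63 are below the standard errors of its own changes (0.24 to 0.31). Those for Krt14 are below the standard error of its change with induction (0.23). For Krt6a the change with induction, 11.2 ± 0.98, rests on 2 uninduced reads.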

How the data were processed

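Read counts per gene (whole numbers) were used as the authors deposited them. Per the submitters' processing notes, TopHat2 2.0.12, Bowtie 1.1 and HTSeq were used. Genome build, strand setting and treatment of reads that fit several places are not given in the sources used here. Coordinates are those of the deposited table. In GENCODE M21 (GRCm38), all 10 members lay at an overlapping place and 6 had the same start and end. That annotation gave exon lengths, coding sequences and shared 50-base windows. It also has genes antisense to exons of Krt5, Krt6a and Krt6b, which counts without strand cannot tell apart.

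The test was that of edgeR 4.0.16 (R 4.3.3), a quasi-likelihood test with TMM factors and 1 term per group over 12 libraries. The expression filter (minimum count 10, minimum total 15) left 14520 genes. Adjusted p is Benjamini-Hochberg over these, with a threshold of 0.05. The design was tested on simulated counts for 14520 genes, with 100 genes changed by 1 and 100 by 2 on the log2 scale: 86% to 89% and 96% to 100% were recovered in the 4 comparisons. Apart from these changes, the simulated libraries shared the mean of each gene over all 12 libraries and a spread set by mean level. The shares therefore do not cover genes almost without reads in a group, replicates of unequal spread, or comparisons where many genes move. SE comes from the fitted model, and CPM uses the TMM factors. Intervals and floors cover counting error only. Same-numbered libraries deviated together most in 1 comparison, both hairpins against induced controls (3 of 3 pairs correlated at 0.141 to 0.31). The correlations were 0.061 to 0.158 for the Trim28 hairpin against controls and 0.032 to 0.191 between single and double knockdown. This pairing was read from the data and not from the labels. Members and lists were chosen with earlier results of these data known. The genes named are the 10 members and, from each list, for each comparison, up to 3 of lowest p that went the way most called genes of the list did, plus 1 that went the opposite way; some of the genes this rule takes are left out. Keratins outside it (Krt2, Krt15) were named after their values were seen. Alternatives were other scalings, DESeq2 1.42.0, limma-voom (limma 3.58.1), other filters, fits to 2 groups, a replicate block and leaving out each library.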

Additional observations from a re-analysis of the deposited data

How the results depend on the processing

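Every call on a member was recomputed under 8 other settings and without each library of the comparison, where the gene kept enough reads to test. Krt1 had 13 such alternatives per comparison, Krt5 had 12 for induction and 13 for the others, and each other member had 14. In all this gave 551 values. Of these, 535 kept their direction and side of the threshold, 7 lost the call and 9 changed sign, all 9 where no call had been made. The 7 losses, in Krt14, Krt17 and Sfn and each without 1 library, stand beside those genes' results. The sign changes were in Sfn with both hairpins against controls (-0.003 with RLE size factors, -0.030 with library totals, -0.0029 with DESeq2, -0.055 without replicate 2 of the controls, -0.057 without replicate 3 of the double knockdown, and up to 0.089 without its replicate 1), Krt5 with the Trim28 hairpin (-0.0061 with DESeq2, -0.40 without replicate 1 of the controls, -0.13 without replicate 2 of the knockdown, and up to 0.32 without replicate 2 of the controls) and Trp63 between single and double knockdown (-0.090 without replicate 1 of the double knockdown, and up to 0.46 without its replicate 3). Under the stricter low-count filter, which left too few reads of Krt1 to test, 1 member rose with the Trim28 hairpin. Without 1 library each, the count that rose was 9 with induction and 2 with the Trim28 hairpin. The count that fell was 6 with the Trim28 hairpin, 7 to 8 with both and 6 to 8 between single and double knockdown, and the other counts were 0. Library totals moved the median of all genes from -0.017 to 0.11 in the comparison with uninduced cells. The count of all genes called between single and double knockdown was 3154, and 4849 in a fit to these groups alone, 1829 and 2063 without replicate 2 or 3 of the Trim28 knockdown and 1853 without replicate 1 of the double knockdown.

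Of 18 same-numbered pairs of libraries, 6 had deviations correlated over 0.1 (range -0.224 to 0.31), and 8 of 12 libraries correlated best with their own number. Pairs numbered differently ranged from -0.273 to 0.386. Among the induced groups all 9 same-numbered pairs were above 0 (0.032 to 0.31, 5 over 0.1). With a replicate block, members that rose were 9, 2, 0 and 0, and members that fell 0, 6, 8 and 8, in the order of the comparisons, and all genes called were 9572, 3864, 5537 and 3399. No call on a member changed with the block. Depth limits Krt5, Krt1 and Trp63, whose libraries held under 100 reads each.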
